A study of Mus musculus with 6 samples.

Results

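The comparison set siRNA on top of TGF-b against TGF-b alone in the T set of primary cardiac fibroblasts from mouse heart. The assay was CUT&Tag, in which an antibody directs a transposase to its protein on chromatin and the cut fragments are sequenced. The T set held 3 libraries, 1 for each treatment: NC, TGF-b alone, and TGF-b plus the siRNA that the labels write as SiTAZ. The text of the study instead describes siRNA against Piezo2 in this experiment. The labels do not give the antibody, and reading T as TAZ is an inference from the study. Of 456310 regions in the 4 deposited tables, 180104 regions outside the mitochondrial chromosome belonged to this comparison, and the 50784 regions (28.2%) whose larger normalized read density was at least 7.5 were kept for statements on genes. A kept region within 3 kb of a transcription start site (TSS) was found for 9629 genes, called promoter genes here. There was 1 library a side, so no test of the siRNA was possible and every count below describes these 2 libraries. The ratio is the log2 of the normalized read density in TGF-b with siRNA over that in TGF-b, so positive values mean more signal with siRNA, and "higher" or "lower" means at least 2-fold.

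TAZ, encoded by Wwtr1, and its paralog YAP are co-activators of the Hippo pathway. They lack a DNA-binding domain and reach chromatin mainly through TEAD factors, often beside AP-1 factors such as Jun and Fosl2. In cardiac fibroblasts TGF-b drives the change to contractile, matrix-producing myofibroblasts, in which YAP/TAZ and the serum response factor SRF act on genes of the actin cytoskeleton. Known targets include Ccn2, Ankrd1 and Amotl2.

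Regions near a TSS differed from the rest of the kept regions. Of the kept regions, 29475 (58.0%) were higher with siRNA and 5674 (11.2%) were lower, with a median log2 ratio of 1.37. Around TSSs the balance was different. Of 10436 kept regions within 1 kb of a TSS, 2163 (20.7%) were higher and 2377 (22.8%) lower, with a median log2 ratio of -0.12. The median was higher farther from the TSS, at 1.37 at 1 to 3 kb, 1.56 at 3 to 10 kb, 1.76 beyond 10 kb and 1.83 in the 17049 regions with no gene assigned. Higher regions made up 83.9% of all those past 2-fold, and 60.2% after centring on the median of all regions, a shift of 0.97 on the log2 scale. In the TGF-b library, 42.4% of the reads of kept non-overlapping windows lay within 1 kb of a TSS, against 22.7% in the siRNA library, leaving out regions with 500 reads or more. Both shares were taken over the same windows, kept where either library passed the density minimum. Of the kept regions 66.3% were called only with siRNA, so the choice of windows enters both shares.

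By annotation, the class of promoters within 1 kb and that of 5' UTRs had the lowest medians and were the only ones below 0. Regions annotated as promoter within 1 kb had 17.7% higher and 23.3% lower (n = 6539), and those in 5' UTRs 12.2% higher and 29.0% lower (n = 1332, median log2 ratio -0.38). Introns had 64.4% higher and 9.25% lower (n = 21390, median 1.57). Exons had 51.4% higher and 13.05% lower (n = 2146, median 1.07), and promoters at 1 to 2 kb 55.8% higher and 9.49% lower (n = 896, median 1.21).

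**Figure D1:**
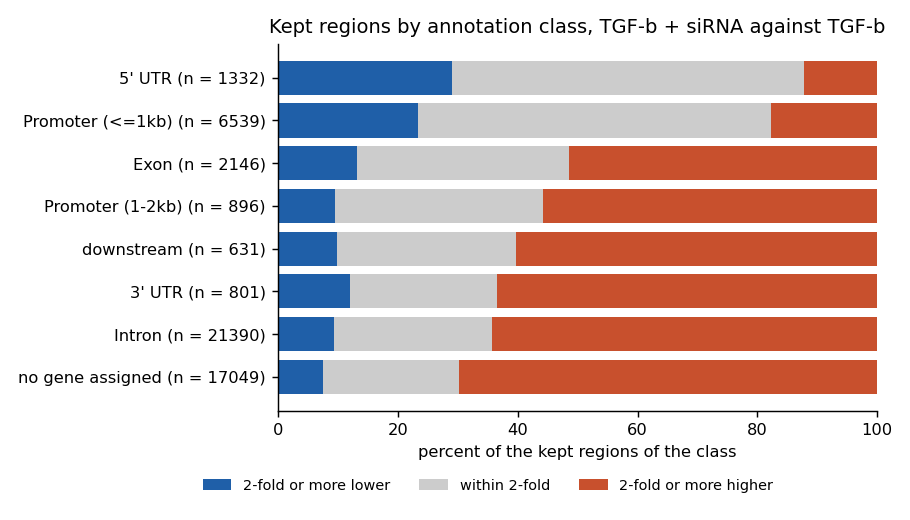
Percent of the kept regions of each annotation class that were at least 2-fold lower (blue), within 2-fold (grey) or at least 2-fold higher (orange) in TGF-b with siRNA than in TGF-b, 1 library a side. The 5' UTR class and the promoter class within 1 kb had 12.2% and 17.7% of regions higher, against 55.8% of promoters at 1 to 2 kb, 64.4% of introns and 69.8% of regions with no gene assigned.

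The direction moved with the library that called a region. Regions called only in the siRNA library made up 66.3% of kept regions and had a median log2 ratio of 2.12, those called only in the TGF-b library 21.6% with a median of -0.53, and those called in both 12.2% with a median of 0.01. In the class called in both, median reads were 30 in TGF-b and 22 with siRNA. Its median ratio near 0 rests on the authors' scaling of the libraries, a median shift of 0.46 over kept regions. The called regions also differed in width. The median width was 77 bases for regions called only with siRNA (minimum 64), 162 bases for those called only with TGF-b (minimum 96) and 244 bases for those called in both. The part of calling in the ratios was not tested. The contrast of promoters with other regions was also present within each class. Among regions called in both libraries the median was -0.21 at promoters within 1 kb (n = 2252), 0.22 in introns (n = 1759) and 0.32 without a gene (n = 1346). Among those called only with siRNA it was 0.85 at promoters and 2.14 in introns. Among those called only with TGF-b it was -0.88 and -0.31.

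**Figure D2:**
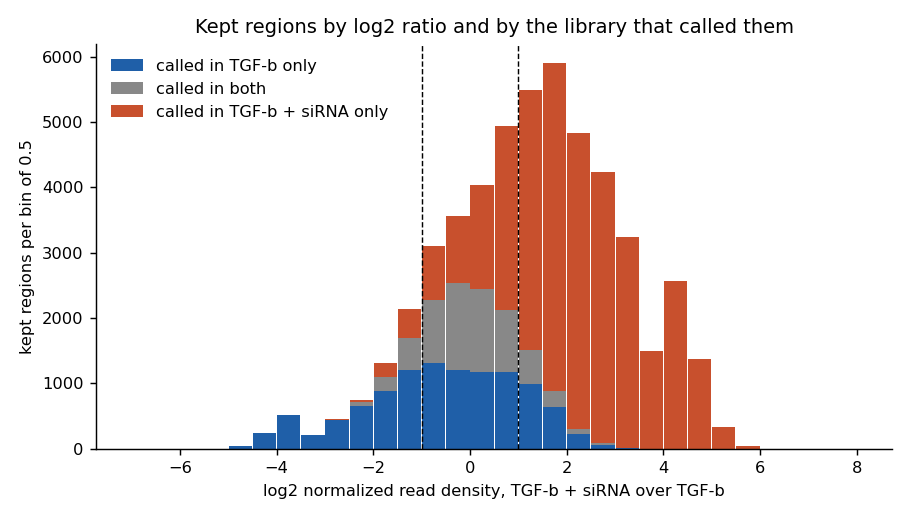
Number of kept regions (y axis) in bins of 0.5 of the log2 ratio of normalized read density, TGF-b with siRNA over TGF-b (x axis), stacked by the library that called the region, with dashed lines at 2-fold. Regions called only with siRNA (orange, 33646 regions) lie mainly above the upper line, and those called only with TGF-b (blue, 10966 regions) spread across both lines.

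Depth set how far single ratios could be read. The density was 0.5 per read in a window of 2 kb, and 30.7% of kept regions had 3 or fewer reads in a library. In the lowest bins of mean log2 density the median log2 ratio was 4.25 (under 1, n = 1799) and 3.15 (1 to 2, n = 10467). A kept region with so low a mean had to pass the density minimum in 1 library alone, which fixed a ratio past 2-fold. Neither bin held a region within 2-fold, so the keep rule enters the fall of the median with density. The median was 1.46 in the largest bin, 2 to 3 (n = 23418), 0.27 at 3 to 4 (n = 11542), -0.01 at 4 to 5 (n = 2946) and 0.02 at 5 to 6 (n = 539). Over 6 it was 0.20, with 16 higher and 1 lower of 73 regions. Of the 29475 higher regions, 28736 had a 95% interval of the ratio above 0, and of the 5674 lower regions, 5442 had one below 0. These Wilson intervals, and those of single ratios below, cover counting error only. Intervals of a list's share or median are taken over its genes, which are not replicates. Just inside the density threshold (7.5 to 8) 6122 regions had a median of 1.57, and just outside it (7 to 7.5) 6065 regions had a median of 1.24. A further 10 regions with 500 reads or more, 8 of them with no gene assigned, had ratios from 0.14 to 1.51.

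The median was above 0 on all 20 chromosomes with at least 100 kept regions. It was lowest on chromosome 19 (0.97) and chromosome 11 (0.99) and highest on the X chromosome (2.15, n = 673).

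A subset of 19773 kept regions had the same borders in the comparison of TGF-b with NC, which gives the reads of the separate NC library. Recovered reads are not scaled to library depth, and the 2 comparisons share the TGF-b library. In the 5044 of these that were lower with siRNA the median was 16 reads in NC, 24 in TGF-b and 4 with siRNA added. In the 4437 higher regions it was 11, 8 and 19 reads. In the 10292 regions within 2-fold it was 21, 24 and 17 reads. The order of TGF-b and siRNA in these groups follows from how they were formed. The matched regions are not typical of the kept regions, with a median log2 ratio of -0.05 against 1.37.

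Promoter genes divided almost evenly, with 2614 (27.1%) higher, 2037 (21.2%) lower and a median log2 ratio of 0.03. Higher genes were 56.2% of those past 2-fold, 37.3% without the authors' line and 21.8% after centring. Those 2 scalings moved every ratio down, by about 0.46 and by 0.97, so ratios below 0 kept their sign. With siRNA, 143 promoter genes were at 0 reads, and 200 were at 0 reads in the TGF-b library. Among the 2751 promoter genes whose region was called in both libraries, 185 (6.72%) were higher and 422 (15.3%) lower, with a median of -0.20.

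The promoters shown here, taken from RefSeq (GRCm38.p6, 250 bases before to 50 bases after the gene's start, 5' to 3' on the gene's strand), are those of 3 genes of the YAP/TAZ circuit (Ankrd1, Amotl2 and Yap1), of 3 genes among those with the deepest losses (Lactb, Tbpl1 and Dap) and of 2 among those with the largest gains (Ptpra and Pld4). Capitals mark GGAATG or its complement CATTCC, the core letters of the TEAD element, searched on both strands. The start of RefSeq need not be the start to which the authors measured distance.
Ankrd1: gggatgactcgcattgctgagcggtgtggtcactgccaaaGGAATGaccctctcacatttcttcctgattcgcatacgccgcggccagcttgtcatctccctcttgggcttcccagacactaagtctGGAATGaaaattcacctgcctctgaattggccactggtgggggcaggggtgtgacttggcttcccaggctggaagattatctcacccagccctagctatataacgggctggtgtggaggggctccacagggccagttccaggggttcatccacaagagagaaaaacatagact
Amotl2: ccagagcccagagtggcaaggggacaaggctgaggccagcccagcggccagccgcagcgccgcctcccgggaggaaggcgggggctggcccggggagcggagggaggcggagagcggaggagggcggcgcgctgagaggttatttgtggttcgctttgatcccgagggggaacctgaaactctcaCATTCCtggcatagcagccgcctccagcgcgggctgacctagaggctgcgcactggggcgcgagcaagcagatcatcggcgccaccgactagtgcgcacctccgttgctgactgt
Yap1: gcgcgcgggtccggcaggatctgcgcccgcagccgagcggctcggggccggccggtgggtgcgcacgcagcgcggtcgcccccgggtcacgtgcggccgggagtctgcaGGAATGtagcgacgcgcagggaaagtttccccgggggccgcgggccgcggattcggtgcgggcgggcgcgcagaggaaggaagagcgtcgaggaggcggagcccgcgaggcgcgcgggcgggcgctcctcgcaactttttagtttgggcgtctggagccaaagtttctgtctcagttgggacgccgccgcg
Lactb: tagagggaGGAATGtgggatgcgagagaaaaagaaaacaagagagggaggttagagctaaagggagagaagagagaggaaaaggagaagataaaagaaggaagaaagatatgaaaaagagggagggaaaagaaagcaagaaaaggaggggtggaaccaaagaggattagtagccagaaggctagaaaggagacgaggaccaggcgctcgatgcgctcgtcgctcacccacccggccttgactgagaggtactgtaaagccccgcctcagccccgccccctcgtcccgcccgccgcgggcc
Tbpl1: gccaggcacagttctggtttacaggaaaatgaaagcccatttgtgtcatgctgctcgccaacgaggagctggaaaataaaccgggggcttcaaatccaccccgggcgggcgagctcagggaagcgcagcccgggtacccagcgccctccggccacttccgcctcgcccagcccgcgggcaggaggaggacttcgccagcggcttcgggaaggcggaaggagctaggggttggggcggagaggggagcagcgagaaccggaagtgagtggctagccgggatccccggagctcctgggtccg
Dap: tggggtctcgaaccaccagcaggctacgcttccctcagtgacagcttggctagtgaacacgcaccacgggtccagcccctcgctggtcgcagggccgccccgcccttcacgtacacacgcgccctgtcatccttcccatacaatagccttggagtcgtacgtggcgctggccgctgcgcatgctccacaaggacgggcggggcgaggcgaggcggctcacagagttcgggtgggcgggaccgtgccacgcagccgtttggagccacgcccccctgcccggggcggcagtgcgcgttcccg
Ptpra: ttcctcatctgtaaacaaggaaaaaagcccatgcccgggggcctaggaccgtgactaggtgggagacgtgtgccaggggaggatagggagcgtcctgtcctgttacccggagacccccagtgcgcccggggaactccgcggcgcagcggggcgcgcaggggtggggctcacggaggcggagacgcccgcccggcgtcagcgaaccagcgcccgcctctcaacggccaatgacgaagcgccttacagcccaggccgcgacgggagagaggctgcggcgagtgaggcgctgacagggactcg
Pld4: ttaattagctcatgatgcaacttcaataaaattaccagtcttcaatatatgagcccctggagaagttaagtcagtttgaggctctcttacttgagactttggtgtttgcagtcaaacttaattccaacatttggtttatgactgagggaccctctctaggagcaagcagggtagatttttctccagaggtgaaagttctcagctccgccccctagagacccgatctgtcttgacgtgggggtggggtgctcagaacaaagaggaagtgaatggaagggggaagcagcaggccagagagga
They lie at chr19:36119795-36120094 (Ankrd1, minus strand), chr9:102717554-102717853 (Amotl2, plus), chr9:8004547-8004846 (Yap1, minus), chr9:66975435-66975734 (Lactb, minus), chr10:22731398-22731697 (Tbpl1, minus), chr15:31224135-31224434 (Dap, plus), chr2:130450028-130450327 (Ptpra, plus) and chr12:112760405-112760704 (Pld4, plus). The TEAD letters began 210 and 123 bases before the start of Ankrd1, 65 before that of Amotl2, 141 before that of Yap1 and 242 before that of Lactb. The other 4 windows held none, and none of the 8 held the AP-1 element TGACTCA, its complement TGAGTCA, or a CArG box.

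The counts of each gene list below stand beside 27.1% higher and 21.2% lower over all promoter genes, with a median of 0.03. Over the 8010 genes with a kept region within 1 kb of a TSS, 19.6% were higher and 23.9% lower, with a median of -0.16. Of 30 YAP/TAZ target genes listed, 20 had a kept promoter region, of which 3 (15%) were higher and 4 (20%) lower, a share of lower genes near that of all promoter genes, with 15 of 20 below 0 and a median log2 ratio of -0.37 (95% rank interval -0.87 to -0.13). The list median was -0.54 over the 6 regions called in both libraries, -0.59 over the 9 called only with TGF-b and 1.68 over the 5 called only with siRNA, beside -0.20, -0.89 and 1.31 over all promoter genes called in these ways. Of the 9 called only with TGF-b 4 were lower, beside 46.7% of all promoter genes called so. It was 0.13 when all kept regions of a gene were used instead of its promoter (25 genes). The largest loss was at Crim1, which encodes a transmembrane regulator of BMP signalling, with 18 reads in TGF-b and 0 with siRNA, at least 4.403-fold lower against a floor of 3 reads. Amotl1, an angiomotin that binds YAP and TAZ, had 22 reads and 2 reads (log2 ratio -2.48, 95% interval -4.94 to -1.06). Cavin2, a coat protein of caveolae, had 39 and 9 reads (-1.53, -2.67 to -0.62). NC held 19 reads at Crim1, 9 at Amotl1 and 33 at Cavin2, in each case above the siRNA library.

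Several well known targets were below 0 without passing 2-fold. Amotl2 had 64 NC reads, 84 in TGF-b and 30 with siRNA (-0.97, -1.60 to -0.41). Tead1, the DNA-binding partner itself, had 24, 81 and 31 reads (-0.87, -1.50 to -0.31). Ccn2, which encodes connective tissue growth factor, had 150, 115 and 54 reads (-0.59, -1.07 to -0.14). Ankrd1, a cardiac ankyrin repeat protein, went the other way, with 52 reads in NC, 25 in TGF-b and 32 with siRNA (0.82, 0.08 to 1.58), and its value was negative after centring. The 3 higher genes were Dock5 (2 and 25 reads, 3.57), Tgfb2 (2 and 12 reads, 2.57) and Ccn1 (5 and 13 reads, 1.68). All 3 were intronic or exonic regions 1510 to 2401 bases from the nearest TSS, 64 to 69 bases wide and called only with siRNA, and all 4 lower targets were called only with TGF-b. Ccn1 was under 2-fold after centring (0.71).

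Of the genes of the Hippo pathway itself, 22 had a kept promoter region. Of these 2 (9.09%) were higher and 3 (13.6%) lower, with intervals of 2.53 to 27.8 and 4.75 to 33.3 that hold the shares of all promoter genes, and the median was -0.46 (-0.86 to 0.36). At Wwtr1, which encodes TAZ, the promoter region had 41 NC reads, 65 in TGF-b and 25 with siRNA (-0.86, -1.56 to -0.24), and an overlapping window 802 bases upstream had 49 and 21 reads (-0.71, -1.48 to -0.02). Tead3 had 25 reads in TGF-b and 6 with siRNA (-1.43, -2.84 to -0.35), and Sav1, the scaffold of the MST kinases, 26 and 8 (-1.12, -2.35 to -0.12). Yap1 stood out in the other direction. Its region in exon 2, at chr9:8001468-8001568 as deposited and 186 bases from the nearest annotated TSS, had 0 reads in TGF-b and 30 with siRNA, at least 13.7-fold higher. That region was 100 bases wide and called only with siRNA. Stk3 and Vgll3 had 57 and 60 reads in TGF-b against 44 and 44 with siRNA, with ratios of 0.12 and 0.04.

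AP-1 genes were below 0 at most promoters. Of 7 genes 6 were below 0, 3 were lower and none was higher, with a median of -0.87 (rank interval -1.47 to 0.27). The median was -0.09 when all kept regions of a gene were used. Fosl2, a Fos-family subunit, had 35 NC reads, 80 in TGF-b and 20 with siRNA (-1.47, -2.22 to -0.82). Junb had 39, 74 and 23 reads (-1.16, -1.87 to -0.54). Mafk, a small Maf protein, had 73, 81 and 27 reads (-1.07, -1.73 to -0.48). Jun followed with 29, 69 and 27 reads (-0.84, -1.51 to -0.24), while Atf3 had 57, 76 and 47 (-0.20, -0.73 to 0.31). Of the 7 regions 5 were called only with TGF-b.

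SRF family and immediate early genes had 5 of 17 higher and 4 lower and a median of 0.05 that was below 0 under both other scalings. None of the 5 higher genes stayed past 2-fold after centring or without the line. The 4 lower genes had to stay so, since both scalings move every ratio down. Lower members were Srfbp1 (20 and 3 reads, -1.93), Dstn, an actin-severing protein (55 and 15 reads, -1.33), Egr1 (71 and 22 reads, -1.17) and Junb. Actb, which encodes beta-actin, had 42 and 15 reads (-0.95, -1.85 to -0.17). Srf itself had a single kept region, in exon 6, with 12 reads in TGF-b and 24 with siRNA (1.41, 0.49 to 2.45). Cfl1 (36 and 61 reads, 1.23) and Elk4 (19 and 34 reads, 1.28) were also higher, and Ier2 (10 and 15 reads) and Myocd (6 and 12 reads) made up the rest. After centring the ratios of Srf, Cfl1, Elk4 and Myocd were 0.44, 0.26, 0.31 and 0.38.

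**Figure D3:**
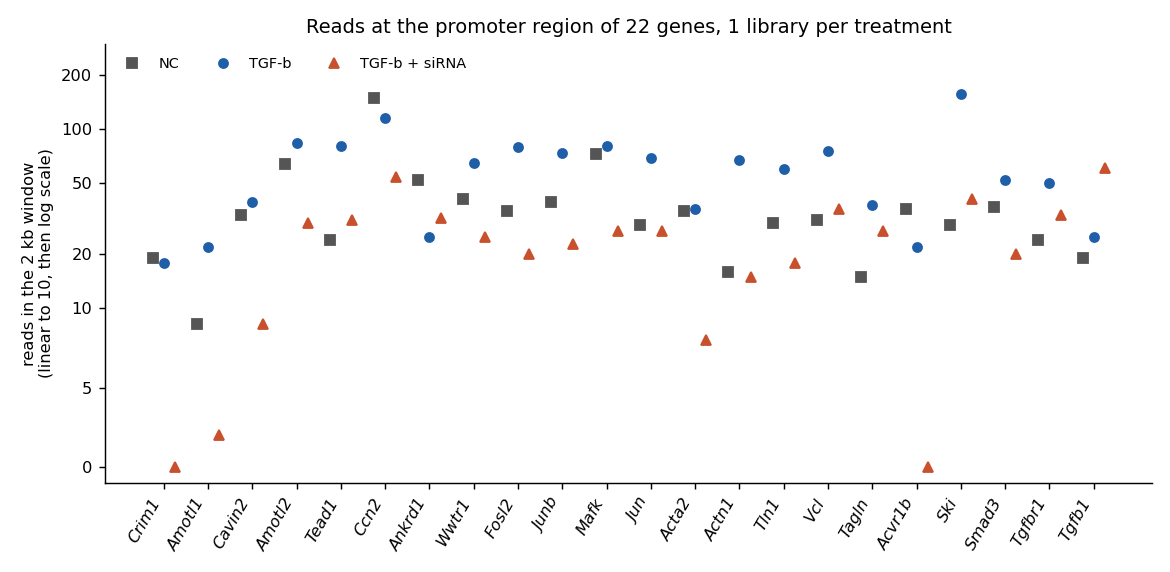
Reads recovered in the 2 kb window of the promoter region of 22 genes in NC (squares), TGF-b (circles) and TGF-b with siRNA (triangles), 1 library per treatment, on an axis that is linear to 10 and logarithmic above. At Fosl2, Junb, Actn1 and Ski the TGF-b library holds the most reads, and at Crim1 and Acvr1b the siRNA library holds 0. The genes were picked as examples, most with fewer reads with siRNA than with TGF-b. Higher list members such as Yap1, Dock5 and Mylk are not shown.

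Contractile genes were mixed as well. Of 23 promoter genes 4 were higher and 6 lower, with 14 below 0 and a median of -0.08. Acta2, which encodes smooth muscle alpha-actin and marks myofibroblasts, had 35 NC reads, 36 in TGF-b and 8 with siRNA in its 5' UTR region (-1.57, -2.78 to -0.62). Actn1, an alpha-actinin of stress fibres, had 16, 67 and 15 reads (-1.61, -2.48 to -0.89), and Actn4 37 reads in TGF-b and 9 with siRNA (-1.46). Tln1, the integrin activator talin, had 30, 60 and 18 reads (-1.21, -2.01 to -0.51). The TGF-b library held the most reads at Actn1 and Tln1, and the siRNA library held fewer reads than NC there. By contrast Zyx (182 and 120 reads, -0.10), Myh9 (130 and 87 reads, -0.08), Tpm1 (24 and 17 reads) and Tagln (38 and 27 reads) had ratios near 0. Higher members were Lmod1 (1 and 13 reads, 3.26, 1.57 to 6.73), Mylk (11 and 38 reads, 2.17), Cnn2 (6 and 15 reads, 1.65) and Tpm2 (14 and 32 reads, 1.61), each in an intron and called only with siRNA, and Cnn2 and Tpm2 were under 2-fold after centring (0.68 and 0.64).

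Collagen genes split in both directions. Of 13 genes 4 were lower and 6 higher, with a median of 0.24 that was below 0 under both other scalings. Of the 6 higher genes, Col4a2 and Col14a1 stayed past 2-fold after centring and 4 genes did without the line. The 4 lower genes had to stay lower under both. Col1a1, the main fibrillar collagen of scar, had 31 reads in TGF-b and 6 with siRNA (-1.73, -3.13 to -0.68) in an intronic region 327 bases from the TSS that was called only with siRNA. Col15a1 had 18 reads and 1 read (-2.80, -6.28 to -1.16), Col8a2 39 and 9 (-1.53) and Col6a2 21 and 5 (-1.41). The basement membrane pair Col4a1 (10 and 26 reads, 1.76) and Col4a2 (9 and 31 reads, 2.15) was higher, as were Col14a1 (3 and 14 reads, 2.36, 0.98 to 4.38), Col5a3 (18 and 40 reads, 1.58) and Col16a1 (20 and 38 reads, 1.37). Col18a1 was the sixth, with 7 and 12 reads (1.16). All 6 higher collagen regions were called only with siRNA.

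Among other matrix genes, 6 of 23 were higher and 4 lower (median -0.07). All 6 higher regions were called only with siRNA and all 4 lower ones only with TGF-b. Of the 4 called in both none was past 2-fold. Lower were Vcan, a large proteoglycan (27 and 2 reads, -2.76, -5.22 to -1.37), Thbs2 (21 and 3 reads, -2.002, -4.003 to -0.70), and the prolyl hydroxylase genes whose products collagen folding needs, P4ha1 (66 and 14 reads, -1.68) and P4ha2 (50 and 13 reads, -1.39). Nid2 (5 and 27 reads, 2.69), Ogn (6 and 19 reads, 1.98), Fn1 (5 and 13 reads, 1.68), Mmp14 (13 and 28 reads, 1.52) and Sparc (14 and 23 reads, 1.15) were higher. After centring Nid2 and Ogn were the only higher genes left, with Fn1 at 0.71, Mmp14 at 0.55 and Sparc at 0.18. Myofibroblast markers gave 2 higher and 2 lower of 12 (median 0.15, below 0 under both other scalings), and neither of the higher genes was past 2-fold after centring. Within the list, Lox had 61 and 38 reads (-0.19) and Tnc 19 and 12 reads (-0.16).

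Receptors and effectors of TGF-b signalling were lower at 9 of 30 promoter genes (30%, 95% Wilson interval 16.7 to 47.9, which holds the 21.2% of all promoter genes) and higher at 5, with a median of -0.09. Of the 9 lower regions 7 were called only with TGF-b. The type I activin receptor gene Acvr1b had 36 NC reads, 22 in TGF-b and 0 with siRNA, at least 5.38-fold lower. Bmpr2 (23 and 5 reads, -1.54) and Acvr2a (17 reads and 1 read, -2.72, -6.20 to -1.08) were lower too. Among transducers, Smad2 had 68 and 17 reads (-1.46), Smad5 17 and 2 (-2.13, -4.59 to -0.67) and Smad3 52 and 20 (-0.86, -1.64 to -0.17). The deepest of these regions was that of Ski, a co-repressor of Smads, with 29 reads in NC, 158 in TGF-b and 41 with siRNA (-1.43, -1.95 to -0.96), called in both libraries. Pmepa1, a feedback inhibitor, had 2, 29 and 8 reads (-1.27). The TGF-b receptor genes Tgfbr1 (50 and 33 reads, -0.10) and Tgfbr2 (29 and 20 reads, -0.04) were near 0. The ligand gene Tgfb1 was higher, with 19 reads in NC, 25 in TGF-b and 61 with siRNA (1.73, 1.10 to 2.43) in an exonic region called in both libraries, and so were Ltbp4, a latent TGF-b binding protein (8 and 22 reads, 1.82), and Acvrl1 (11 and 20 reads, 1.27). The others past 2-fold on the higher side were Tgfb2 and Bmpr1b (9 and 14 reads, 1.05). After centring only Tgfb2 of these 5 stayed past 2-fold, with Tgfb1 at 0.76, Ltbp4 at 0.85, Acvrl1 at 0.30 and Bmpr1b at 0.076. Without the line Acvrl1 and Bmpr1b were under 2-fold.

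Several housekeeping families had medians below 0. None of 27 splicing factor genes was higher and 11 were lower (40.7%), with 23 below 0 and a median of -0.64 (-1.35 to -0.34). Of its regions 15 were called only with TGF-b, among them 8 of the 11 lower ones, beside 46.7% lower over all promoter genes called only with TGF-b, and 2 of the 8 called in both were lower. Hnrnpc, which coats nascent transcripts, had 45 NC reads, 64 in TGF-b and 14 with siRNA (-1.64, -2.54 to -0.89) in a region called in both libraries. U2af2, which recognises the polypyrimidine tract, had 25, 66 and 14 reads (-1.68, -2.58 to -0.94), and Hnrnph1 12, 53 and 11 reads (-1.70). Hnrnpa1 of the same family was near 0 (39, 89 and 63 reads). Of 30 initiation factor genes, matched by name and so including Eif4ebp1, which encodes a repressor that binds the cap-binding protein, 8 were lower (26.7%, interval 14.2 to 44.4, which holds the share of all promoter genes). Only 1 was higher (3.33%, interval 0.59 to 16.7, below the 27.1% of all promoter genes), and the median was -0.59. The lower genes included Eif4e, which encodes the cap-binding protein (38 and 6 reads, -2.01), Eif2s1 (38 and 7 reads, -1.82) and Eif4ebp1 (51 and 8 reads, -2.06). Chaperone and heat shock genes, matched by name and so including the proteoglycan gene Hspg2, had 13 of 47 lower (27.7%, interval 16.9 to 41.8) and 4 higher (8.51%, interval 3.36 to 19.9). Their median was -0.46, and Cct5 of the chaperonin ring had 33 and 3 reads (-2.63, -4.62 to -1.38). Proteasome genes had 8 of 27 lower (29.6%, interval 15.9 to 48.5) and 4 higher (median -0.49). For chaperone and proteasome genes the intervals of the lower share hold the 21.2% lower of all promoter genes. The interval of the higher chaperone share lies below the 27.1% of all promoter genes but holds the 19.6% of genes within 1 kb. Of the lower members, 10 of 13 chaperone genes and all 8 proteasome genes were called only with TGF-b.

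Other families were split more evenly. Respiratory chain genes, assembly factors included, had 15 of 40 lower (37.5%, interval 24.2 to 52.97) and 11 higher (median -0.50). The lower end of that interval is above the 21.2% of all promoter genes. It is close to the 23.9% of genes within 1 kb of a TSS, where 38 of the 40 had a kept region. Of the 17 regions called only with TGF-b 10 were lower, beside 46.7% of all promoter genes called so. Of the 11 higher genes 2 stayed past 2-fold after centring and 6 without the line. The list held Uqcrfs1 and Ndufaf4, each at 22 reads in TGF-b and 0 with siRNA, and Cyc1 at 8 and 31 reads (2.30). Cytosolic ribosomal protein genes had 8 lower and 8 higher of 34, with a median of 0.08 that was below 0 under both other scalings. KRAB zinc finger genes had 35 of 139 lower and 24 higher (median -0.30). Members of the DNA methylation machinery with a kept promoter region numbered 6. Uhrf1 was lower (25 and 7 reads, -1.24), Dnmt3a (3 and 14 reads, 2.36, 0.98 to 4.38) and Tet2 (4 and 12 reads, 1.83) were higher, and Tet1 had 10 and 15 reads (1.004, -0.08 to 2.17). Of these higher genes only Dnmt3a stayed past 2-fold after centring. Tet3 had no kept region.

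Chemosensory receptor genes, which act mainly in sensory neurons, lay at the opposite end. Of 89 with a kept region within 3 kb of a TSS, 77 were higher and 5 lower, and the median was 2.16, staying above 0 without the line (1.70) and after centring (1.19). Of these 89 regions 78 were called only with siRNA and 2 in both libraries, and the list's median was 4 reads in TGF-b against 14 with siRNA. A region kept for its density in the siRNA library alone has a ratio above 0 by that choice, so the count describes which regions were kept. Or10am5 had 0 reads in TGF-b and 22 with siRNA, at least 10.0-fold higher, and Or5a3 0 and 19 reads. The few lower members included Or2y15, which had 18 reads in TGF-b against 0 in both NC and the siRNA library.

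**Figure D4:**
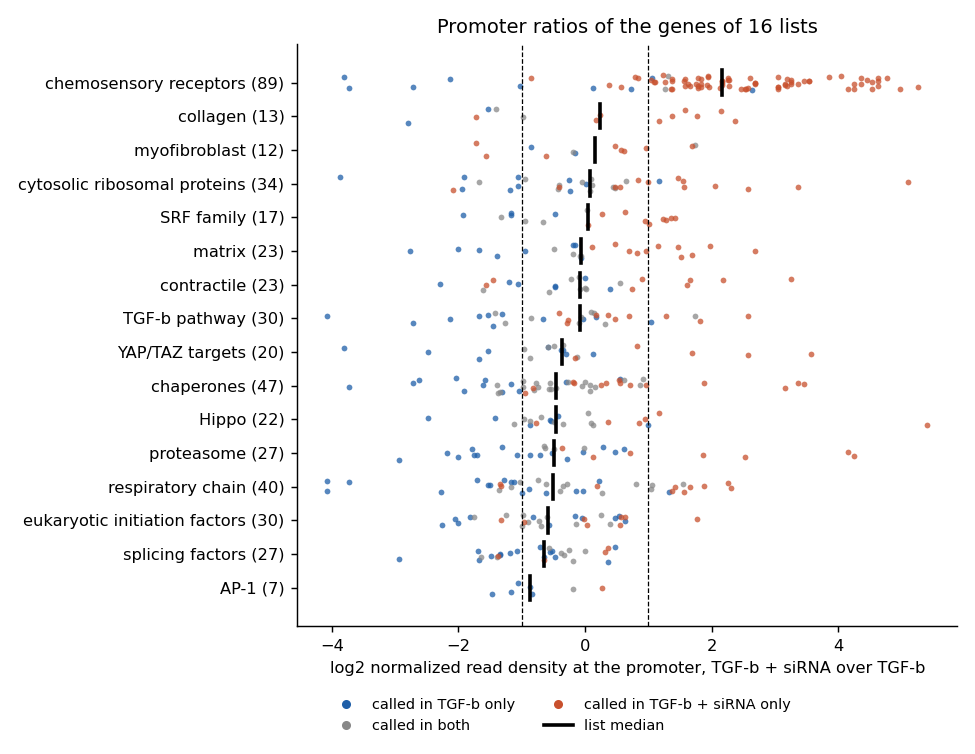
Log2 ratio of normalized read density at the promoter region, TGF-b with siRNA over TGF-b (x axis), for each gene (points, coloured by the library that called the region) of 16 gene lists (y axis, number of promoter genes in parentheses), with list medians as bars and dashed lines at 2-fold. List medians run from -0.87 for AP-1 to 2.16 for chemosensory receptors, and the collagen, myofibroblast, ribosomal and SRF medians, all between 0 and 0.25, fall below 0 without the line or after centring.

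The KEGG classes in the authors' annotation were ranked by their medians. Among 41 classes with at least 30 promoter genes, 31 had a median below 0. After centring sensory system alone had a median above 0 (0.54). Without the line only it (1.03) and signaling molecules and interaction (0.37) did. Transcription (31 of 89 lower and 12 higher, median -0.39) and folding, sorting and degradation (70 of 261 lower and 40 higher, median -0.37) were near the low end. Sensory system (102 of 159 higher and 17 lower, median 1.51) and signaling molecules and interaction (105 of 226 higher and 38 lower, median 0.84, negative after centring) formed the high end. The order was not kept over regions called in both libraries alone, where the sensory system median was -0.04 (n = 14), below replication and repair (0.05, n = 36), and digestive system, at 0.04 over all its genes, was at -0.71 (n = 36). Predicted and unnamed genes had 38.4% higher and 16.9% lower (n = 1804), and named genes 24.5% higher and 22.1% lower (n = 7825).

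The promoters with the firmest losses, ranked by the interval bound nearest to no difference, were those of Tbpl1, Mmp24os1, Casp8ap2, Dis3l, Stx2, Lactb, Klhl18, Auts2, Fam171a2, Dap, Trp53bp2 and Tceanc. All 12 were called only with TGF-b. Tbpl1, a TBP-like initiation factor, had 10 NC reads, 47 in TGF-b and 0 with siRNA in its 5' UTR region (chr10:22607266-22607416 as deposited), at least 11.4-fold lower. Casp8ap2, which is needed for histone gene expression, had 24, 42 and 0 reads, and Dis3l, a catalytic subunit of the cytoplasmic exosome, 32, 42 and 0, both at least 10.2-fold lower. Stx2, a plasma membrane syntaxin, had 28, 60 and 1 read (-4.47, -7.97 to -2.93). Dap, a death-associated protein, had 30, 70 and 2 reads (-4.10, -6.55 to -2.78), and Trp53bp2, a partner of p53, had 37, 69 and 2 reads (-4.08, -6.53 to -2.75). Auts2 and Fam171a2 differed from these in that each had 1 read in NC as well, 36 in TGF-b and 0 with siRNA. At 10 of the 12 promoters NC held 10 reads or more.

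The promoter genes with the firmest gains were Traf3, Muc5ac, Tfec, Yap1, Spata21, Arl9, Ppp2r2b, Or5ac24, Ptpra, Pld4, Celsr2 and Mir124a-1hg, all called only with siRNA. Traf3, an adaptor of TNF receptors, had 10 NC reads, 1 in TGF-b and 57 with siRNA in an intronic region (5.32, 3.77 to 8.81). Muc5ac, a secreted mucin, had 0 and 38 reads, at least 17.3-fold higher, and Tfec, a transcription factor of the MiT family, 0 and 34 reads, at least 15.5-fold higher. Ptpra, a receptor phosphatase, had 0 and 26 reads in a region 216 bases before its TSS, and Pld4 0 and 25 reads 300 bases before it. Of these 12 regions 3 were annotated as promoter within 1 kb (Ppp2r2b, Ptpra and Pld4) and none as 5' UTR. Of the 12 losses 10 were annotated as one or the other.

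Promoters called in both libraries gave smaller ratios with more reads behind them. Sp2, a GC-box binding factor, had 74 NC reads, 98 in TGF-b and 8 with siRNA (-2.98, -4.16 to -2.12). Thrap3, a splicing and Mediator-associated protein, had 13, 67 and 6 reads (-2.81, -4.18 to -1.84), and Prdx3, the mitochondrial peroxiredoxin, had 35, 64 and 7 (-2.55, -3.82 to -1.62). In the other direction Macrod1 had 11, 26 and 87 reads (2.19, 1.60 to 2.85), Tigd3 0, 13 and 64 reads (2.69, 1.93 to 3.62) and Syne1, which encodes the nuclear envelope protein nesprin-1, 49, 21 and 63 reads (2.02, 1.36 to 2.77). These 6 genes, and the deepest promoters below, were chosen after their values were seen. Of the 12 deepest promoter genes under 500 reads, 1 was higher (Sfi1) and 1 was lower (Brpf1). After centring Sfi1 was at 0.09, and most of the 12 were lower, among them Garnl3 (-1.23) and Lims1 (-1.45). Under 2-fold but with intervals excluding 0 were Dnpep (203 and 270 reads, 0.92, 0.66 to 1.18), Cdca2 (250 and 114 reads, -0.62, -0.95 to -0.31) and Lims1 (230 and 116 reads, -0.48, -0.81 to -0.17). Wipi1 had 253 and 205 reads (0.20, -0.06 to 0.47), Garnl3 267 and 157 (-0.26, -0.55 to 0.02) and Hdgfl2 261 and 155 (-0.24, -0.53 to 0.04), whereas Brpf1 had 109 NC reads, 273 in TGF-b and 85 with siRNA (-1.17, -1.53 to -0.83).

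Beyond 10 kb from a TSS, 9810 of 14259 regions with a gene assigned (68.8%) were higher and 1155 (8.10%) lower. The firmest losses were assigned to Bicd2, Gpr52, Cers6, Vps13d, Lcor and Macf1, each with 32 to 36 reads in TGF-b and 0 with siRNA. The firmest gains were assigned to Dock9 (12 reads in NC, 0 in TGF-b and 62 with siRNA, at least 28.3-fold higher), Arhgap24 (0 and 46 reads, at least 21.0-fold higher), Wdr7, Cacna1a, Itsn2 and Stk39. All 6 of these gains were called only with siRNA.

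Windows were also counted along genes. A window with few TGF-b reads was kept only if the siRNA library passed the density minimum, so that its ratio had to be above 0, and the genes named were picked for their counts. Of 27059 non-overlapping kept windows assigned to a gene, 53.2% were higher and 13.5% lower, and 912 genes held at least 5 such windows. In 612 of these genes most windows were higher, and in 7 most were lower. Spock1, a secreted proteoglycan, had 40 windows of which 30 were higher and none lower (median log2 ratio 1.56). Csmd1 had 23 higher and none lower of 30 (median 1.67), Rbfox1, a neuronal splicing factor, 23 higher and 2 lower of 28 (2.05), Dpp10 22 higher and 1 lower of 24 (2.19) and Dab1 22 higher and 2 lower of 28 (1.78). Over the list of 30 long neuronal genes, 300 of 376 windows were higher and 20 lower, with a median of 2.12. At the 9 kept promoter regions of this list 3 were higher and 2 lower, with a median of -0.23. Phldb2, which links microtubules to focal adhesions, was 1 of the 7, with 5 of 5 windows lower (median -1.95). Its windows had 17 to 47 reads in TGF-b and 2 to 10 with siRNA, and NC held 5 to 60. Tspan9 (7 higher and 5 lower of 16), Pde4d (6 and 5 of 13), Msi2 (2 and 4 of 7) and Fmn1 (2 and 4 of 9) held windows past 2-fold in both directions. The same was seen at Tead1, with 5 higher and 4 lower of 16. At Piezo1, 3 of 5 windows were higher and 1 lower, the lower one 2294 bases from the TSS (24 reads in NC, 48 in TGF-b and 11 with siRNA). At Piezo2, 2 of 6 were higher and 1 lower, all in introns.

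**Figure D5:**
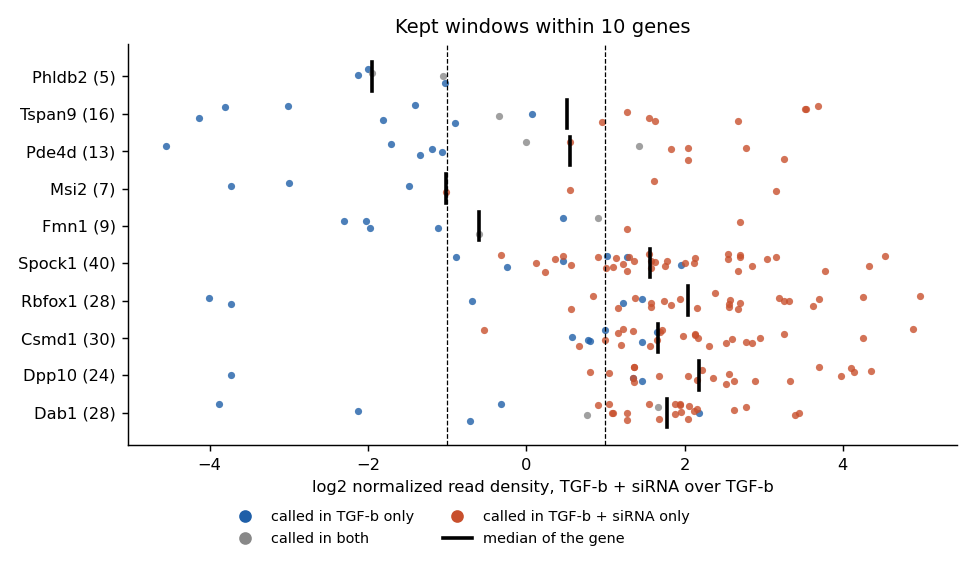
Log2 ratio of normalized read density, TGF-b with siRNA over TGF-b (x axis), of each kept non-overlapping 2 kb window (points, coloured by the library that called the region) of 5 genes with the most lower windows (top, ties in number broken by the lower median) and the 5 with the most higher windows (bottom), with the number of windows in parentheses, medians as bars and dashed lines at 2-fold. All 5 windows of Phldb2 lie below the lower line, and 30 of 40 windows of Spock1 lie above the upper line.

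Promoter sequence was compared for 5405 of the 6615 protein-coding genes with a kept region within 1 kb of a TSS, for which RefSeq gave a 300-base promoter. Promoters poor in CpG, by the observed over expected CpG ratio, had the largest share of higher genes. It was 38.1% under a ratio of 0.3 (n = 483), 20.5% at 0.3 to 0.6 (n = 894), 13.3% at 0.6 to 0.9 (n = 2625) and 13.5% above 0.9 (n = 1403). The share of lower genes was 19.3%, 22.3%, 25.4% and 27.6% in the same order. Among regions called in both libraries the share of higher genes was 6.67% under 0.3 (n = 90), 9.67% at 0.3 to 0.6 (n = 300), 4.76% at 0.6 to 0.9 (n = 966) and 4.16% above 0.9 (n = 505), with medians of -0.05, -0.11, -0.25 and -0.31. Among regions called only with siRNA the share was 69.8% (n = 235), 47.6% (n = 296), 36.9% (n = 726) and 38.99% (n = 395). The TEAD letters GGAATG, on either strand, were found in 10.7% of promoters of lower genes (95% Wilson interval 9.15 to 12.5), 12.02% of those within 2-fold, 12.5% of higher genes (10.5 to 14.8) and 14.6% of all 27025 promoters of the table. The AP-1 letters TGACTCA or TGAGTCA were in 3.42%, 3.52% and 4.31% of promoters of lower, within 2-fold and higher genes and in 5.17% of all promoters, and the CArG box in 1.41%, 1.33%, 1.22% and 1.57%. The intervals of lower and higher genes overlapped for each of the 3 motifs.

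The markers of cell types gave little on which to check the label. A kept promoter region was found for 4 of 12 fibroblast markers (Col1a1, Vim, Pdgfra and S100a4), 2 of 10 cardiomyocyte markers (Mb and Ttn), 3 of 6 endothelial markers (Tek, Tie1 and Cdh5) and 2 of 6 leukocyte markers (Csf1r and Adgre1). The summed reads at these promoters, in TGF-b and then with siRNA, went from 88 to 62 in the fibroblast list, from 14 to 29 in the cardiomyocyte list, from 49 to 47 in the endothelial list and from 17 to 37 in the leukocyte list. Both cardiomyocyte and both leukocyte regions were called only with siRNA and kept for their density in that library alone, so their ratios had to be above 0 and say nothing of cell makeup. These are chromatin reads and not transcripts, and the part of cell makeup in the ratios was not tested.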

How the data were processed

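CUT&Tag reads were measured in primary cardiac fibroblasts from mouse heart, with 1 library per treatment and set. The labels name BWA 0.7.12 and mm10, whereas the study's methods name another aligner and GRCm39, and coordinates are printed as deposited. Regions that the files place close to the TSS of Tbpl1, Lactb, Ptpra and Pld4 lie far from the RefSeq GRCm38.p6 starts of these genes, so the deposited coordinates are not those of mm10. The values used are signal, the normalized read density that the authors deposited for regions called in either library of a comparison. It is counted in windows of 2 kb after adding 1 read, at 0.5 per read, and the authors then normalized the libraries along a straight line (slope 0.0104, intercept 0.435, fitted here to the files). Whole reads were recovered within 0.1 in 100% of regions. The files also hold the authors' own log ratios, mean levels and p-values, which were not used. Regions on the mitochondrial chromosome (14) were left out.

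Ratios, counts past 2-fold and Wilson 95% intervals of the read share were computed in Python 3.11.15 with numpy 2.4.6, pandas 2.3.3 and scipy 1.17.1, and the steps were tested on simulated data. Over kept non-overlapping windows the TGF-b library held 595052 reads and the siRNA library 730978. A ratio against 0 reads is given against a floor of 3 reads. Each gene took its kept region within 3 kb of a TSS with the highest summed density. Named genes were members of the fibroblast and signalling lists past 2-fold whose interval excluded no difference, the 12 lower and 12 higher promoter genes and 6 lower and 6 higher distant regions whose interval bound was farthest from no difference, and the 5 genes a side with the most windows past 2-fold. Further list members, in the other families too, were chosen as examples after their values were seen. Some list members are counted in the lists but not reported here by name. Members and lists were chosen with earlier results of these data known. Alternatives covered the fold, the density minimum, the scaling, added reads, overlap, the calling library and the distance.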

Additional observations from a re-analysis of the deposited data

Results flagged for a closer look

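The median log2 ratio of kept regions was 1.37 in the T set. In the S set, where the labels name an siRNA as SiSRF and the libraries are others, the same measure was -0.39 over 19208 kept regions, so the medians of both siRNA comparisons lay on opposite sides of 0. With 1 library a side in each set the difference was not tested. At promoter genes the medians were 0.03 in the T set (n = 9629) and 0.04 in the S set (n = 5499).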

How the results depend on the processing

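No paired analysis was possible because each treatment had 1 library. For kept regions, a 4-fold rule gave 18092 higher and 2214 lower. No density minimum gave 89445 higher, 29130 lower and a median log2 ratio of 0.97, and a minimum of 15 gave 4552, 1353 and 0.65. Centring on all regions gave 18312, 12085 and 0.40. Without the authors' line 8536 were lower and the median was 0.91. Adding 5 reads gave a median of 1.17 and 1 region per 2 kb window 1.46. Regions called in both libraries alone gave 890 higher, 771 lower and a median of 0.0072, which rests on the authors' line. For promoter genes, regions within 1 kb gave 1572 higher and a median of -0.16, and the median over all kept regions of a gene gave 6933 higher and 0.88. A density minimum of 15 gave 691 higher, 787 lower and -0.17. Centring gave 1288, 4621 and -0.94. Without the line 3214 were lower and the median was -0.44. Regions called in both libraries alone gave 212, 478 and -0.19. A 1.5-fold rule gave 3073 lower. The YAP/TAZ list median reversed, to 0.13, with the median over all kept regions of a gene, for which the cause was not tested. Of 31 list medians 19 were below 0, against 30 after centring, 27 without the line and 6 over all kept regions. Of 94 ranked or listed genes and regions past 2-fold whose interval excluded no difference, 17 were under 2-fold after centring, 7 without the line and 6 with 5 reads added. None reversed. Under the 2 scalings none could, since each moves a ratio by less than the 2-fold that these members had passed. Over the lists with per-gene values, which leave out the KRAB zinc finger, mitochondrial ribosomal, ubiquitin conjugating, cadherin and long neuronal lists, and with no rule on the interval, 163 higher promoter genes became 83 after centring and 125 without the line. All 129 lower ones had to stay lower, since both scalings move every ratio down. The same shift made further genes lower. After centring 22 splicing factor genes were lower in place of 11, and 29 chaperone genes in place of 13. With 1 library a side, no setting measures the spread between cultures, and 30.7% of kept regions had 3 or fewer reads in a library.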
